A study of Rattus norvegicus with 4 samples.

Results

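The TGF-beta pathway genes described here are the ligands Tgfb1, Tgfb2 and Tgfb3, the receptors Tgfbr1, Tgfbr2 and Tgfbr3, and the intracellular proteins Smad2, Smad3, Smad4 and Smad7. They were measured in RNA of rat mammary gland. Members were all probe sets whose only gene symbol in the platform annotation was that of 1 of these 10 genes. This gave 16 of 31099 probe sets, for 9 of the 10 genes. No probe set was listed for Tgfbr2, and it was not analysed here.

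The series holds 4 arrays, 1 per group. In Sprague-Dawley rats (SDR), 1 array is of lactation day 1 and 1 of involution day 1, when the gland regresses after milk removal ends. The other 2 are of lactation day 1 in Hirosaki hairless rats (HHR), a mutant strain that lacks fur, with 1 from the heterozygous state (the heterozygote below) and 1 from the homozygous state (the homozygote). The labels give neither the mutated gene, the animals' age, the number of animals behind an array nor the length of lactation before involution. Without replicates no error between animals and no test can be given, and only the size of each difference is reported.

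TGF-beta ligands are secreted in a latent form and, once freed, bring together type II and type I receptors on the cell surface. The type I receptor phosphorylates Smad2 and Smad3, which enter the nucleus with the shared partner Smad4, while Smad7 is a feedback inhibitor that blocks the receptor. In the mammary gland this pathway is known for restraining epithelial growth and secretion, and Tgfb3 is known as a milk stasis signal of the early regressing gland.

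Signals are intensities on a linear scale, and values under a floor of 91.5 were raised to it before a fold or a log2 difference was taken. Where several probe sets measured a gene, that with the highest mean log2 signal stood for it (its representing probe set), and a difference of at least 2-fold was called. All 9 genes lay above the floor in all 4 arrays through their representing probe set. In the bulk tissue fewer cells of a type and less RNA per cell cannot be told apart. Signals of different probe sets are not comparable with each other, so each gene is compared only with itself across arrays. The sums over lists of cell type markers given below are an exception, and the brightest probe sets of each list weigh most in them.

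The arrays carried the tissue they are labelled with, since 0 of 9 markers of the secretory epithelium lay at or under the floor in any array. Summed signals of these markers were between 267142 and 295643. These sums were carried by milk protein genes such as Csn1s1 (59405 in SDR lactation) and do not show how the fainter markers differed. The Gapdh control's 3′ signal over its 5′ signal, a ratio that grows as RNA degrades, was 1.17 in SDR lactation, 1.93 in the heterozygote, 2.30 in the homozygote and 1.60 in involution. The same ratio of the actin control was 4.60, 7.86, 5.91 and 4.797 in that order, so both were lowest in SDR lactation and they differed in which HHR array was highest. Their part in the differences below was not tested.

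Tgfb3 and Smad3 were the members at least 2-fold higher in homozygous HHR than in SDR at lactation, and the sequences before their transcription starts are shown so that the DNA upstream of both can be read side by side. They are the 250 bases upstream of the start in a RefSeq promoter table of rat build GRCr8, at chr6:111456947-111457196 for Tgfb3 and chr8:73132325-73132574 for Smad3, both on the minus strand. The Tgfb3 gene span in RefSeq reaches further upstream than this start. Capitals mark the letters GTCT on either strand, the core that Smad proteins bind.
Tgfb3: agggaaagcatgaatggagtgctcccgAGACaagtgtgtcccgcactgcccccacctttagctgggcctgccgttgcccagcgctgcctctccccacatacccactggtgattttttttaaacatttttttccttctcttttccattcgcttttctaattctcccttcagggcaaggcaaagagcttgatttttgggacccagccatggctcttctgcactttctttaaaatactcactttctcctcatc
Smad3: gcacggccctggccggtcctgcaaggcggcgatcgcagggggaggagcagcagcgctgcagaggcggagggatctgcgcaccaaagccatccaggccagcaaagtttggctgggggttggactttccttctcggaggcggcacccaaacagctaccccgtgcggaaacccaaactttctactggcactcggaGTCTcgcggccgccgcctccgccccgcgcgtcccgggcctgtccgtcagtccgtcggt

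Each of these windows held 1 match to GTCT, at 223 bases before the start of Tgfb3 and 58 before that of Smad3. Such a short word was present in 84.1% of 33465 windows of the same length. The GC content was 48.8% for Tgfb3 and 68.4% for Smad3, against a median of 51.2% over all windows. Promoter windows were found for all 10 genes, 11 in all because Smad2 has a pair, and the word GTCT lay in 7 of them. On both strands, 0 of the 11 held the Smad palindrome GTCTAGAC (0.173% of all windows), the AP-1 site TGANTCA (6.34%), the cAMP response element TGACGTCA (1.59%) or the STAT site TTCNNNGAA (7.67%). The GC box GGGCGG lay in 7 of 11 (30.5% of all windows), the CCAAT box in 4 (34.0%) and the TATA box TATAAA in 1, that of Smad4 (12.9%). Both Smad2 windows held a GC box and a CCAAT box, so the counts of these boxes are of windows and not of genes. The Smad2 windows overlap and share a GC box. These matches describe letters in a window and not binding.

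The ligand Tgfb3 varied most among the members. Its probe set 1367859_at had a signal of 4047 in SDR lactation, 2099 in the heterozygote, 8809 in the homozygote and 7209 in involution. The homozygous HHR array was thus highest, the involution array close behind it and the heterozygous HHR array lowest. The level in homozygous HHR was 2.18-fold that of SDR lactation and 4.20-fold that of heterozygous HHR, and heterozygous HHR was 1.93-fold below SDR lactation, just short of the call. Involution was 1.78-fold above SDR lactation and 1.22-fold below homozygous HHR. Of 9437 genes above the floor in all arrays, 5.14% spanned a range at least as wide as its 4.20-fold.

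Tgfb2, a ligand that needs the co-receptor Tgfbr3 for efficient binding, was measured by a pair of probe sets. The representing one, 1387172_a_at, had 1727 in SDR lactation, 1826 in the heterozygote, 3055 in the homozygote and 1517 in involution. The other, 1388011_a_at, had 708, 633, 1006 and 759 in the same order. Both were highest in homozygous HHR, with the remaining 3 arrays close together. Homozygous HHR was 1.77-fold above SDR lactation by the first and 1.42-fold by the second, short of the call. Against involution it was 2.01-fold higher by the first and 1.33-fold by the second, so the call of this difference rests on 1 probe set. Tgfb1, the ligand best known from immune and stromal cells, had 259 in SDR lactation, 191 in the heterozygote, 254 in the homozygote and 292 in involution. Its lowest array was again heterozygous HHR, and its full range of 1.53-fold did not reach the call.

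**Figure D1:**
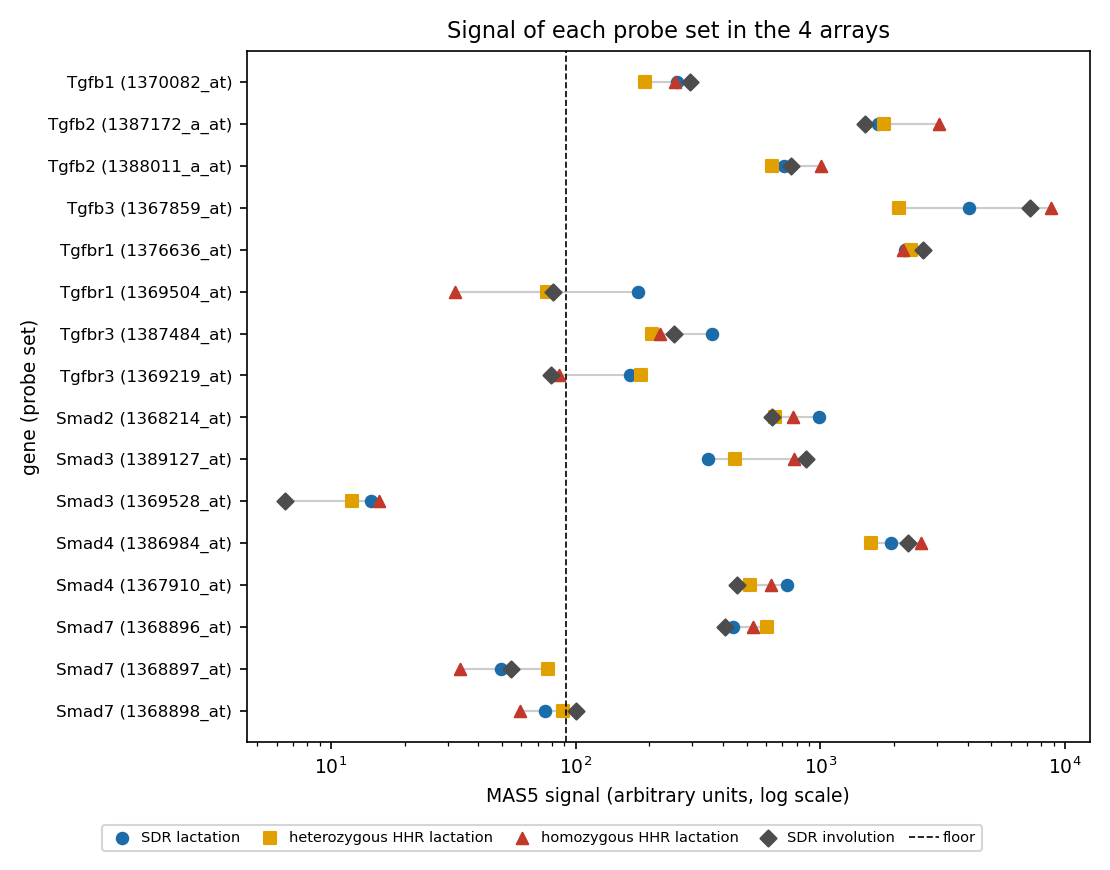
The plot gives the signal of the 16 probe sets in the 4 arrays on a log axis in arbitrary units, with 1 marker per array and the floor of 91.5 as a dashed line. The homozygous HHR triangle lies farthest to the right for Tgfb3 (8809) and for both probe sets of Tgfb2 (3055 and 1006), and for Smad3 the homozygous HHR and involution arrays (779 and 873) lie apart from the other 2.

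Of the receptors, neither Tgfbr1 nor Tgfbr3 reached 2-fold by its representing probe set. Tgfbr1, the type I receptor that carries the kinase activity, had 2225 in SDR lactation, 2344 in the heterozygote, 2186 in the homozygote and 2624 in involution by probe set 1376636_at. All arrays lay within 1.20-fold, and 95.4% of genes above the floor in all arrays had a range at least that wide. Its other probe set, 1369504_at, had 179 in SDR lactation and values under the floor in the remaining arrays (76.1, 32.0 and 80.9), which is at least 1.96-fold lower in each of them. The probe sets of Tgfbr1 therefore gave different pictures.

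Tgfbr3, also called betaglycan, the co-receptor that presents ligand, was highest in SDR lactation by probe set 1387484_at. It had 362 there, 205 in the heterozygote, 222 in the homozygote and 252 in involution. Heterozygous HHR was 1.76-fold, homozygous HHR 1.63-fold and involution 1.44-fold below SDR lactation. These differences share the SDR lactation array, and none was called. By its second probe set, 1369219_at, the arrays fell in another order, with 167 in SDR lactation and 186 in heterozygous HHR, and values under the floor in homozygous HHR (85.3) and involution (79.0). The heterozygous HHR array was thus among the low ones by the first probe set and highest by the second.

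Smad3, which transmits the receptor signal to DNA, was higher in homozygous HHR and in involution than in the other arrays. Probe set 1389127_at had 346 in SDR lactation, 447 in the heterozygote, 779 in the homozygote and 873 in involution. Against SDR lactation, homozygous HHR was 2.25-fold and involution 2.52-fold higher, and both were called. Heterozygous HHR lay 1.29-fold above SDR lactation and 1.74-fold below homozygous HHR, between the levels of the other 2 lactation arrays. A second probe set, 1369528_at, lay under the floor in all 4 arrays, between 6.50 and 15.7, and gave no information. The calls of Smad3 therefore rest on 1 probe set. With the mean of both its log2 difference was 0.58 for homozygous HHR and 0.67 for involution, short of the call. The probe set under the floor adds a difference of 0, so this drop follows from the averaging and does not test the calls.

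Smad2, the other receptor-activated Smad, did not share this pattern. It had 990 in SDR lactation, 652 in the heterozygote, 776 in the homozygote and 635 in involution, so that SDR lactation was highest. Homozygous HHR was 1.28-fold, heterozygous HHR 1.52-fold and involution 1.56-fold lower, with none called. Smad4, the common partner, had 1945, 1609, 2586 and 2274 in the order SDR lactation, heterozygote, homozygote and involution by probe set 1386984_at. By 1367910_at it had 728, 516, 628 and 457 in that order. Homozygous HHR was thus 1.33-fold above SDR lactation by the first and 1.16-fold below it by the second, and Smad4 has no settled direction in that comparison. The same held for involution, 1.17-fold higher by the first and 1.59-fold lower by the second. Against heterozygous HHR, homozygous HHR was higher by both, 1.61-fold and 1.22-fold.

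Smad7, the inhibitor that is itself induced by TGF-beta, was highest in heterozygous HHR. Probe set 1368896_at had 440 in SDR lactation, 605 in the heterozygote, 530 in the homozygote and 409 in involution. Its range of 1.48-fold lay within the call, and 71.9% of genes had a range at least as wide. Of its other probe sets, 1368897_at lay under the floor in all arrays and 1368898_at rose above it only in involution, at 100.5.

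The homozygote array was compared with the SDR array of lactation, with 1 array each. Tgfb3 and Smad3, 2 of the 9 members, were at least 2-fold higher, where 3.77% of 10866 measured genes were. None of the members was at least 2-fold lower, where 2.72% of genes were. The median log2 difference of the members was 0.27, against 0.02 over all genes, and single members lay between -0.71 for Tgfbr3 and 1.17 for Smad3. With so few members the count is a description of these 2 arrays. Summed markers of fibroblasts, a source of TGF-beta ligands and matrix, were 0.99-fold those of SDR lactation in homozygous HHR, while 8 of 8 of these markers were above the floor in each array. Those of myoepithelium were 1.78-fold, with 3 of 7 at least 2-fold higher and 1 lower, and those of endothelium 0.679-fold, with 1 of 6 lower. The adipocyte sum was 0.512-fold through Fabp4 (23931 in SDR lactation, 9885 in the homozygote), whereas Adipoq, Plin1 and Cidec had higher signals in the homozygote, none of them at least 2-fold, and the median of the 4 measured markers was 0.53. Of 8 macrophage and neutrophil markers 2 were called higher in the homozygote, S100a8 (at least 3.55-fold) and S100a9 (at least 3.06-fold). Adgre1 was called lower, and the sum was 0.88-fold. The part of these markers in the differences of Tgfb3 and Smad3 was not tested.

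Heterozygous HHR against SDR at lactation gave 0 called members in either direction, where 4.58% of 10876 genes were at least 2-fold higher and 4.15% lower. The median of the members was -0.27, against 0.01 over all genes. Tgfb3 was nearest to the call at a log2 difference of -0.95, followed by Tgfbr3 at -0.82 and Smad2 at -0.60. Smad7 lay highest at 0.46. Summed fibroblast markers were 0.64-fold those of SDR lactation, with 2 of 8 at least 2-fold lower, and endothelial markers were 0.61-fold with 1 of 6 lower. The myoepithelial sum was 1.79-fold, with 1 of 7 higher and 1 lower. Of 8 macrophage and neutrophil markers 2 were called higher, S100a8 (at least 2.69-fold) and S100a9 (at least 3.04-fold). Csf1r, Adgre1 and C1qa were called lower, and the sum was 0.63-fold. Of 4 measured adipocyte markers 2 were at least 2-fold higher, Plin1 and Cidec, and 1 lower, Fabp4, with a median of 0.68 and a sum, carried by Fabp4, of 0.513-fold. Their part was not tested.

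Between homozygous and heterozygous HHR, Tgfb3 alone among the 9 members was called higher, at a log2 difference of 2.07, where 3.76% of 10877 genes were. No member was called lower, where 3.14% of genes were. The members' median was 0.41 against 0.00 over all genes. After Tgfb3 came Smad3 at 0.80, Tgfb2 at 0.74 and Smad4 at 0.68. Summed fibroblast markers were 1.55-fold higher in homozygous HHR and the myoepithelial sum was 0.996-fold. The heterozygous HHR array was lowest of the 4 for Tgfb3, Tgfb1, Tgfbr3 and Smad4 by the representing probe sets. By the other probe sets of Tgfbr3 and Smad4 it was not the lowest. For Tgfb3 the comparison thus holds a low level in heterozygous HHR beside the high level in homozygous HHR. Tgfb1 and Tgfbr3 had no high level in homozygous HHR, with 254 and 222 against 259 and 362 in SDR lactation.

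Involution against lactation in SDR gave 1 called member, Smad3, at a log2 difference of 1.33, where 10.3% of 11014 genes were at least 2-fold higher and 8.94% lower. None of the members was called lower. Tgfb3 followed at 0.83, and Smad2 was the lowest at -0.64. The median of the members was 0.17, against 0.08 over all genes, so the members as a group lay near all genes in the comparison where the most genes differed. Summed fibroblast markers were 0.80-fold those of lactation, with 1 of 8 at least 2-fold higher. The macrophage and neutrophil sum was 1.63-fold, with 2 of 8 higher, S100a8 (75.3 in lactation, 2809 in involution) and S100a9 (83.2 and 1409). Of the other markers in that list, Adgre1 (1.92-fold), C1qb (1.27-fold) and Cd68 (1.04-fold) were higher in involution. Csf1r (1.35-fold), C1qa (1.29-fold) and Cd163 (1.66-fold) were lower there, and none of these others reached 2-fold. The adipocyte sum was 0.24-fold, with 2 of 4 measured markers lower and a median of -1.31. The endothelial sum was 0.685-fold, with 1 of 6 markers at least 2-fold higher (Vwf) and 1 lower (Kdr). Among 9 secretory epithelium markers 3 were at least 2-fold higher (Krt8, Krt18 and Krt19) and 1 lower (Elf5). Their part was not tested.

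Between the involution and homozygous HHR arrays, Tgfb2 was called lower in involution at a log2 difference of -1.01, where 7.67% of 10998 genes were, and no member was called higher, where 7.76% of genes were. The other 8 members lay between -0.37 for Smad7 and 0.26 for Tgfbr1. Tgfb3 was at -0.29 and Smad3 at 0.16. The macrophage and neutrophil sum was 1.85-fold in involution, with 3 of 8 markers at least 2-fold higher and 1 lower. The adipocyte sum was 0.46-fold with 3 of 4 measured markers lower, the myoepithelial sum 0.74-fold and the fibroblast sum 0.81-fold. Of 9 secretory epithelium markers 3 were at least 2-fold higher in involution (Krt8, Krt18 and Krt19) and 1 lower (Elf5). Their part was not tested.

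**Figure D2:**
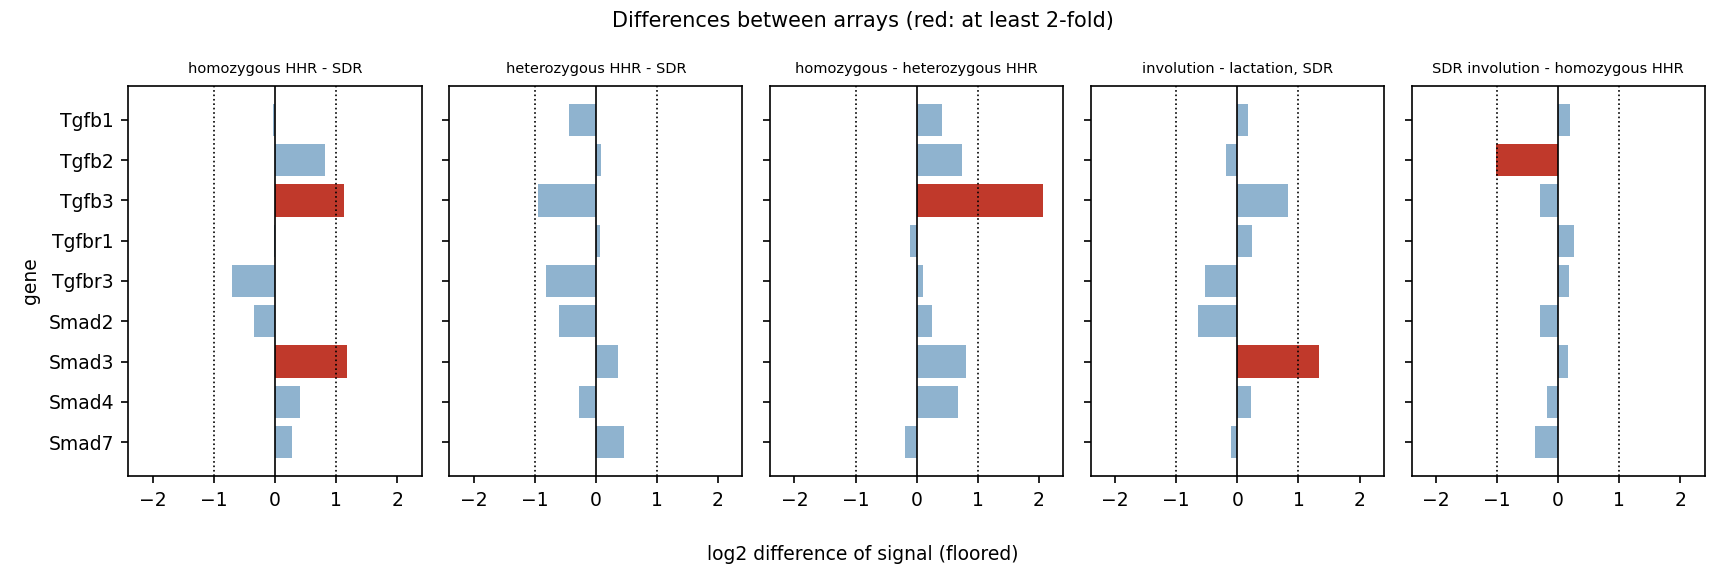
Bars give the log2 difference of the representing probe set of each of the 9 genes in 5 comparisons of arrays, with dotted lines at 2-fold and called differences in red. Tgfb3 is called in homozygous HHR against SDR (1.12) and against heterozygous HHR (2.07), Smad3 in homozygous HHR against SDR (1.17) and in involution (1.33), and Tgfb2 in involution against homozygous HHR (-1.01).

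For the 3 members with at least a 2-fold range, the genes with the most similar profile over the 4 arrays were sought among the 9437 above the floor in all arrays. Likeness was the root mean square difference of log2 values centred on each gene's mean, and with 4 arrays many genes must look alike. Tgfb3 was nearest to Ptpn21 (0.084), Ccng2 (0.10) and Filip1l (0.12). Ccng2 had 1049 in SDR lactation, 648 in the heterozygote, 2308 in the homozygote and 1894 in involution, the same order as Tgfb3. Tgfb2 was nearest to Gpld1 (0.037), Magi3 (0.038) and Cdk17 (0.042). Smad3 was nearest to Apbb1ip (0.027), Def8 (0.044) and Spred3 (0.050).

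Further genes of the pathway were taken from 8 lists of ligand activation, accessory receptors, Smad inhibitors, Smad adaptors, non-Smad signalling, activin, BMP and textbook target genes. Of 103 listed genes 93 were on the array. In homozygous HHR against SDR 6 of 87 measured genes were at least 2-fold higher and 4 lower, in heterozygous HHR against SDR 1 of 84 higher and 5 lower, and between homozygous and heterozygous HHR 8 of 85 higher and 1 lower. In involution against SDR lactation 14 of 88 were higher and 9 lower, and against homozygous HHR 6 of 88 were higher and 6 lower. The background shares are those given above for each comparison. Signals of the named genes below are of 1 array each.

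Of 13 measured genes that hold TGF-beta latent or free it, 0 passed 2-fold in either direction in homozygous or heterozygous HHR against SDR. In involution 4 were higher and 1 lower, where 10.3% of all genes were higher and 8.94% lower, the comparison with the most called genes. Ltbp1, which tethers latent TGF-beta to the matrix, had 322 in SDR lactation, 185 in the heterozygote, 420 in the homozygote and 1245 in involution. Involution was thus 3.87-fold above SDR lactation, and homozygous was 2.27-fold above heterozygous HHR, a call lost with the pseudocount. Ltbp2, of the same family, was 2.30-fold higher in involution, and Lrrc32, which displays latent TGF-beta on cells, was at least 2.48-fold higher there. Ltbp2 and Lrrc32 were not called with the floor at the 55th percentile, nor Ltbp2 with the pseudocount. With the floor at the 25th percentile Lrrc32 was also called higher in both HHR arrays than in SDR lactation. Itgb6, a subunit of an integrin that activates latent TGF-beta, was the fourth, at 2.06-fold, and no longer passed under median centring, quantile normalization or the pseudocount. Emilin1, an inhibitor of ligand processing, was 2.75-fold lower. Dcn, the proteoglycan decorin that binds TGF-beta, had 7436, 3865, 7690 and 9393 in the order of the arrays above and was also a fibroblast marker here.

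Of the 4 accessory receptors measured, 1 was at least 2-fold lower in involution than in SDR lactation and 0 higher. The shares of all genes there were 8.94% lower and 10.3% higher. Bambi, a receptor without kinase activity that dampens signalling, had 184 in SDR lactation and was at the floor in involution, at least 2.02-fold lower, a call lost with the floor at the 55th percentile and with the pseudocount. Eng, the endothelial co-receptor endoglin, had 1964 in SDR lactation and 992 in involution, a 1.98-fold difference that passed 2-fold under median centring and quantile normalization. Acvrl1, a type I receptor of endothelium, was 1.27-fold higher, short of the call. The median of the 4 was -0.91, and it was -0.05 in homozygous and -0.10 in heterozygous HHR.

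Among 14 inhibitors and turnover factors of Smads, 3 were at least 2-fold higher in homozygous HHR than in SDR and 0 lower. The shares of all genes were 3.77% higher and 2.72% lower. Tgif1, a corepressor of Smad2, had 769 in SDR lactation, 752 in the heterozygote, 2180 in the homozygote and 3216 in involution. Like Smad3 it was high in homozygous HHR and involution and lower in the other 2 arrays. It was 2.84-fold higher in homozygous HHR and 4.18-fold higher in involution than in SDR lactation. Nedd4l, a ubiquitin ligase for activated Smads, had 470, 341, 1030 and 1089 in the order SDR lactation, heterozygote, homozygote and involution, and showed the same division, although with the pseudocount its difference in the homozygote was not called. Pmepa1, an inhibitor that binds Smads and is induced by TGF-beta, had 656, 1723, 1827 and 4920 in that order, so that both HHR arrays lay above SDR lactation, at 2.63-fold and 2.79-fold, and involution at 7.50-fold. In involution 3 of the 14 were higher and 1 lower, Ppm1a, a phosphatase of Smads, at 2.64-fold. There 10.3% of all genes were higher and 8.94% lower.

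Adaptors, coactivators and non-Smad genes had few called differences. Tgfbrap1, a protein that associates with the receptors, was 2.72-fold lower in homozygous and 2.20-fold lower in heterozygous HHR than in SDR, and no other of 9 adaptors was called in these comparisons. With the floor at the 55th percentile or the pseudocount Tgfbrap1 was not called. Trim33, a ubiquitin ligase of Smad4, was 2.72-fold lower in involution. Of 9 non-Smad genes 0 were called in the 3 comparisons of lactation arrays and 1 in involution, the GTPase gene Rhoa, with 11176 in SDR lactation and 4450 in involution. Under median centring Rhoa was also called lower in the heterozygote, and with the mean of its probe sets in both HHR arrays.

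In the activin branch, Inhbb, the subunit of activin B, had 253 in SDR lactation, 52.8 in the heterozygote, which is under the floor, 319 in the homozygote and 1122 in involution. It was at least 2.76-fold lower in heterozygous HHR than in SDR, a call lost with the floor at the 55th percentile, and 4.44-fold higher in involution. The order of its arrays differs from that of Tgfb3 in that involution stood highest. Of 7 measured genes 3 were higher in involution, where 10.3% of all genes were. Fstl3, an activin-binding inhibitor, was at least 2.17-fold and the receptor gene Acvr2b at least 2.05-fold higher. Acvr2b no longer passed under median centring or quantile normalization, Fstl3 no longer with the mean of its probe sets, and neither with the floor at the 55th percentile. With the floor at the 25th percentile, Fstl3 and the receptor gene Acvr1c were called higher in the homozygote than in SDR lactation. Under that floor Fstl3 and Acvr2b were called higher in the heterozygote. Fstl3 in the homozygote was also called with the pseudocount.

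Of the BMP branch, 2 of 13 measured genes were called lower in the homozygote than in SDR, 2 of 11 in the heterozygote and 3 of 13 in involution, and 0 higher. These were Id genes, inhibitors of differentiation that BMP signalling induces. The shares of all genes called lower were 2.72%, 4.15% and 8.94% in that order. Id3 had 2349 in SDR lactation, 777 in the heterozygote, 756 in the homozygote and 705 in involution. The 3 arrays other than SDR lactation lay close together, and the comparisons with SDR lactation all share that 1 array. Id1 had 1847, 672, 811.5 and 657 in the same order. Id2 had 9268, 5096, 5352 and 3035, and only involution passed 2-fold, at 3.05-fold lower. The remaining measured BMP genes did not pass 2-fold in any of the 5 comparisons. With the floor at the 25th percentile, however, Bmp2 and Nog were called higher in the homozygote and in involution than in SDR lactation. Under that floor Bmp6 was called lower in the heterozygote. Nog in involution was also called with the pseudocount. Bmp4, Grem1 and Smad9 lay under the floor in all arrays.

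The textbook target genes of TGF-beta were described by 23 measured members. The homozygote had 5 at least 2-fold higher than SDR and 1 lower, and the median of the list was 0.30. Ccn2, connective tissue growth factor, had 428 in SDR lactation, 733 in the heterozygote, 5983 in the homozygote and 2262 in involution, which is 14.0-fold higher in homozygous HHR and 5.28-fold higher in involution. Unlike for Tgfb3, the homozygous HHR array stood clearly above involution, at 2.64-fold. Junb, an AP-1 subunit, was 2.17-fold higher in homozygous HHR, though not called with the pseudocount, and Tgif1 and Pmepa1 also belong to this list. The fifth was Igfbp5, 2.16-fold higher by its representing probe set with 2 further probe sets in the opposite direction, and the lower gene was Tnc, the matrix glycoprotein tenascin C, at 2.05-fold and not called under quantile normalization. Igfbp5 was not called with averaged probe sets. Igfbp5 and Tnc are named here to complete the count, outside the naming rule.

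Among the target genes, the matrix genes Col3a1 and Postn did not pass 2-fold in any of the 5 comparisons. Col3a1, a fibrillar collagen, had 31427 in SDR lactation, 18053 in the heterozygote, 28327 in the homozygote and 18525 in involution. Postn, periostin, had 10425, 8754, 12178 and 13085 in that order. Heterozygous HHR had 1 gene higher, Pmepa1, and 1 lower, Fn1, fibronectin, at 2.27-fold, with a median of -0.22. Over all genes 4.58% were higher and 4.15% lower in that comparison, with a median of 0.01. Smad6, also in the list of Smad inhibitors, had 182 in SDR lactation and was under the floor in the heterozygote, at least 1.98-fold lower. It was called lower there under median centring, under quantile normalization and with the floor at the 25th percentile. Involution had 6 of 23 higher and 1 lower, and a median of 0.33. Tnc was 7.30-fold lower there, with 10687 in SDR lactation and 1464 in involution. Fn1 was 2.003-fold higher in involution than in SDR lactation and did not pass under median centring or with the pseudocount. Several of these genes, among them Acta2, Col1a1 and Fn1, are also in the marker lists of fibroblasts or myoepithelium, so the list is not separate from those markers.

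**Figure D3:**
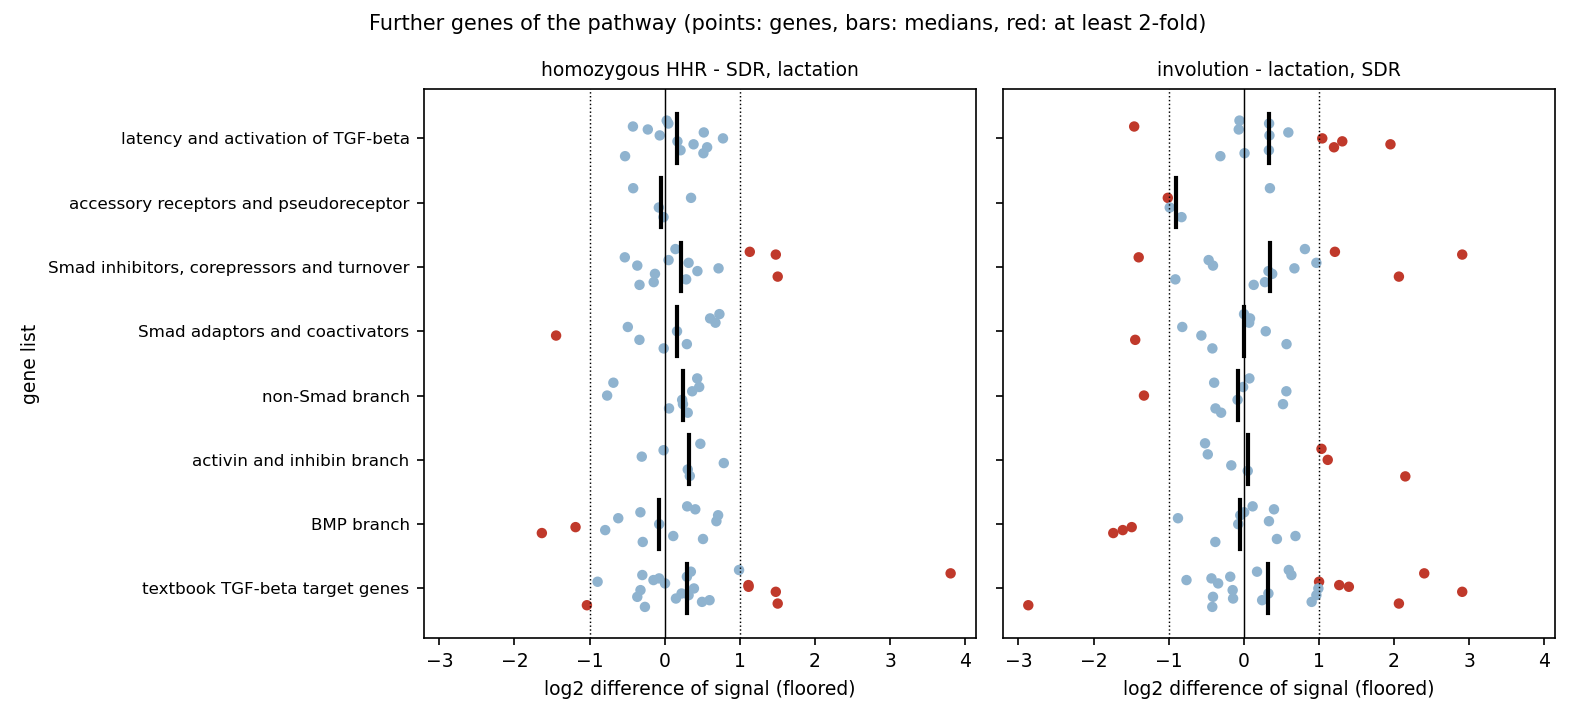
Points are the log2 differences of single genes in 8 lists for homozygous HHR against SDR at lactation (left) and involution against lactation in SDR (right), with black bars at the list medians, dotted lines at 2-fold and called genes in red. Of the target genes Ccn2 lies farthest right in homozygous HHR (3.81), and in involution Pmepa1 (2.91) and Tnc (-2.87) lie at the ends.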

How the data were processed

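The authors deposited 1 linear signal intensity for each probe set and array, made with MAS5 per the submitters' processing notes, which give no version; log2 was taken here. A 2% trimmed mean lay between 500.15 and 500.17 in all 4 arrays. With 57 controls left out, 20826 probe sets had 1 symbol, 436 several and 9780 none in the platform annotation, and 0 columns were unmapped. The floor is the 40th percentile of all signals (91.5), and 14217 genes were represented. RefSeq tables of GRCr8 gave names and promoters. The number of arrays limits the precision.

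Differences were taken in Python 3.11.15 with pandas 2.3.3, and recovery of planted folds was checked on simulated data. No test was made. All members, every probe set, were named. From each list up to 4 genes past 2-fold and up to 2 of the highest signals short of it per comparison were eligible. A selection is given. Acvr1c, Bmp2, Bmp6, Nog and Smad6 were also named, for their calls under the alternatives. Members, lists and rules were chosen with earlier results of these data known. Alternatives were median centring, quantile normalization, other floors, a pseudocount, other probe set choices and a 3-fold threshold.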

Additional observations from a re-analysis of the deposited data

How the results depend on the processing

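Each of the 9 members was recomputed in 5 comparisons under 8 alternatives, 360 values in all. Of these 350 kept their side of the threshold, 10 fell below it and 0 changed sign while called. Only differences called above could fall below it, and most of the 360 values were not of these. The 350 therefore mostly hold differences that stayed short of the call, whose sign was not followed. The 3-fold alternative changed the threshold alone. In homozygous HHR against SDR the count of called members went from 2 to 1 with the pseudocount (Smad3 at 0.99), to 1 with averaged probe sets (Smad3 at 0.58), and to 0 at 3-fold. In involution against SDR lactation it went from 1 to 0 with averaged probe sets and at 3-fold. For Smad3 the averaging took in the probe set under the floor in all arrays, so its loss of both calls there was fixed in advance. In involution against homozygous HHR the count went from 1 to 0 under quantile normalization (Tgfb2 at -0.997), with the pseudocount (-0.97), with averaged probe sets (-0.71) and at 3-fold. The counts of heterozygous HHR against SDR (0) and of homozygous against heterozygous HHR (1, Tgfb3) stayed the same under all 8. Part of this was fixed in advance. Tgfb3 has 1 probe set with signals far above the floors, so other probe set choices and other floors could not change its value. A count of 0 could not rise at the 3-fold threshold.

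Over all genes, 706 were called in homozygous HHR against SDR, 1159 with the floor at the 25th percentile, 458 with the pseudocount and 151 at 3-fold. For heterozygous HHR against SDR these counts were 949, 1445, 585 and 214, and for homozygous against heterozygous HHR 750, 1188, 478 and 130. At 3-fold, 745 of 2114 stayed in involution against SDR lactation and 568 of 1697 against homozygous HHR. Of the pathway lists, to which the alternatives were applied after seeing the data, 6 genes were called higher in homozygous HHR than in SDR and 11 with the floor at the 25th percentile. With 1 array per group no array could be left out, and probe sets under the floor in all arrays, 1 each for Smad3 and Smad7, could not be compared. No paired analysis was possible because each group holds 1 array.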
